A study of Bos taurus with 29 samples.

Results

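A set of 10 immediate early response genes was followed across 12 bovine corpus luteum RNA-seq libraries: FOS, FOSB, FOSL2, JUN, JUNB, JUND, EGR1, ATF3, NR4A1 and IER2. They were chosen by name as the rows of the corpus luteum count table that carry these symbols, 10 of its 19112 genes, and all 10 were among the 18939 genes that passed the filter on low counts. Immediate early genes are transcribed within minutes of a stimulus without new protein synthesis, mostly through factors that already wait at their promoters, such as SRF with its ternary complex partners and CREB. Fos and Jun proteins pair through a leucine zipper to form AP-1, which binds TPA response elements, while EGR1 and NR4A1 are DNA-binding factors of the zinc finger and orphan nuclear receptor families. In the corpus luteum, the ovarian gland that makes progesterone after ovulation, FOS, JUN, EGR1, ATF3 and NR4A1 are known to respond quickly to luteinizing hormone or to luteolytic prostaglandin, and they also respond to handling, dissociation and culture of tissue.

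The series sets endometrial explants beside corpus luteum samples, and only the corpus luteum table was used here. Its 4 groups have 3 libraries each and share the species, the tissue and a slaughterhouse source. The group NC, whose samples also carry the word DMEN, was taken as the control. The groups CM-EE, CM-EE-AI and CM-EE-IVF join CM to the name of an explant group: explants alone (EE), with an in vivo embryo (EE-AI) or with an in vitro embryo (EE-IVF). CM is not explained and was taken to mean conditioned medium from those explants. The sources used here do not say whether a sample was cultured tissue or cells, for how long, or from how many animals it came. Each group holds 1 library numbered R2, 1 numbered R4 and 1 numbered R5. What the number marks is not stated; the titles of the R2 samples have another form than those of R4 and R5, of which there are 2 per library, and a difference in handling behind that form and the number R2 cannot be told apart. If a number stands for 1 animal or 1 culture, its 4 libraries share that source, and a p-value between numbers compares those sources only. Nothing in the labels says that libraries of a group came from separate animals, so p-values measure the spread between these libraries, which may be technical.

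Between 16536797 and 25747637 reads were counted per library. Mitochondrial transcripts took 49.5 to 55.9% of them in R2, 44.4 to 48.9% in R4 and 54.8 to 64% in R5. The 10 genes together took 0.0844 to 0.102% of the counts in R2, 0.201 to 0.258% in R4 and 0.0496 to 0.083% in R5, and no member had fewer than 416 counts in any library. Luteal identity was present throughout: the summed level of 11 steroidogenic markers was at least 1520 CPM (counts per scaled library size) in every library, and none of those markers was at 0. All levels below are CPM scaled by TMM factors, and differences are log2 fold changes from edgeR's quasi-likelihood test, with Benjamini-Hochberg adjustment over the 18939 genes and a threshold of 0.05. CPM is not per length, so levels are compared between libraries and not between genes.

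The 10 genes did not pass the test in any comparison of media, whereas 9 of 10 passed the test for a difference among the library numbers, as did 26.7% of all genes. R4 was highest in all 4 groups for 9 of them, as for 7.29% of all genes, and R5 was lowest in all 4 groups for FOSL2, JUNB, ATF3 and NR4A1, as for 8.51% of all genes. EGR1 spanned the widest range, 9.21-fold between its lowest and highest library, followed by FOS at 7.88-fold and JUNB at 6.82-fold, and IER2 the narrowest at 2.73-fold.

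The Fos proteins act by pairing with a Jun partner. FOS, the founding member and a classic SRF target, measured 86.7 CPM in NC, 127 in CM-EE, 128 in CM-EE-AI and 126 in CM-EE-IVF among the R2 libraries. In R4 the same order of groups gave 268, 263, 436 and 303 CPM, and in R5 it gave 109, 55.3, 75.9 and 67.9 CPM. Every R4 library lay above every other library, and the R2 and R5 ranges overlapped through the control libraries alone. The means were 117 ± 20.1 CPM in R2, 317 ± 81 in R4 and 77.1 ± 23 in R5 (SD, n = 4 each). FOS was higher in R4 than in R2 by 1.41 (95% interval 0.91 to 1.92, adjusted p = 0.00183) and fell by 2.03 from R4 to R5 (adjusted p = 0.000359), while R5 against R2 gave -0.62 (-1.12 to -0.11, adjusted p = 0.0823).

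FOSB, whose splice forms include the stable variant known from repeatedly stimulated neurons, measured 53, 91.4, 70.3 and 65.5 CPM in R2 (NC, CM-EE, CM-EE-AI and CM-EE-IVF, the order kept from here on). It reached 224, 213, 297 and 227 CPM in R4 and stood at 93.3, 60.5, 63.2 and 58.9 CPM in R5. R4 was clear of both other numbers, which overlapped each other. The rise from R2 to R4 was 1.78 (1.3 to 2.25, adjusted p = 0.000276), and R5 against R2 was -0.02 (-0.49 to 0.44, adjusted p = 0.963).

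FOSL2 (Fra-2), a slower and longer lived Fos relative, had 131, 215, 145 and 168 CPM in R2, 184, 219, 247 and 182 CPM in R4, and 86.5, 72.1, 87.4 and 91.2 CPM in R5. Here R5 was the number that stood apart, and R2 and R4 overlapped. FOSL2 fell by 0.95 from R2 to R5 (interval -1.35 to -0.55, adjusted p = 0.00315) and fell by 1.29 from R4 to R5 (adjusted p = 0.00105). R4 against R2 gave 0.34 (-0.05 to 0.74, adjusted p = 0.24).

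**Figure D1:**
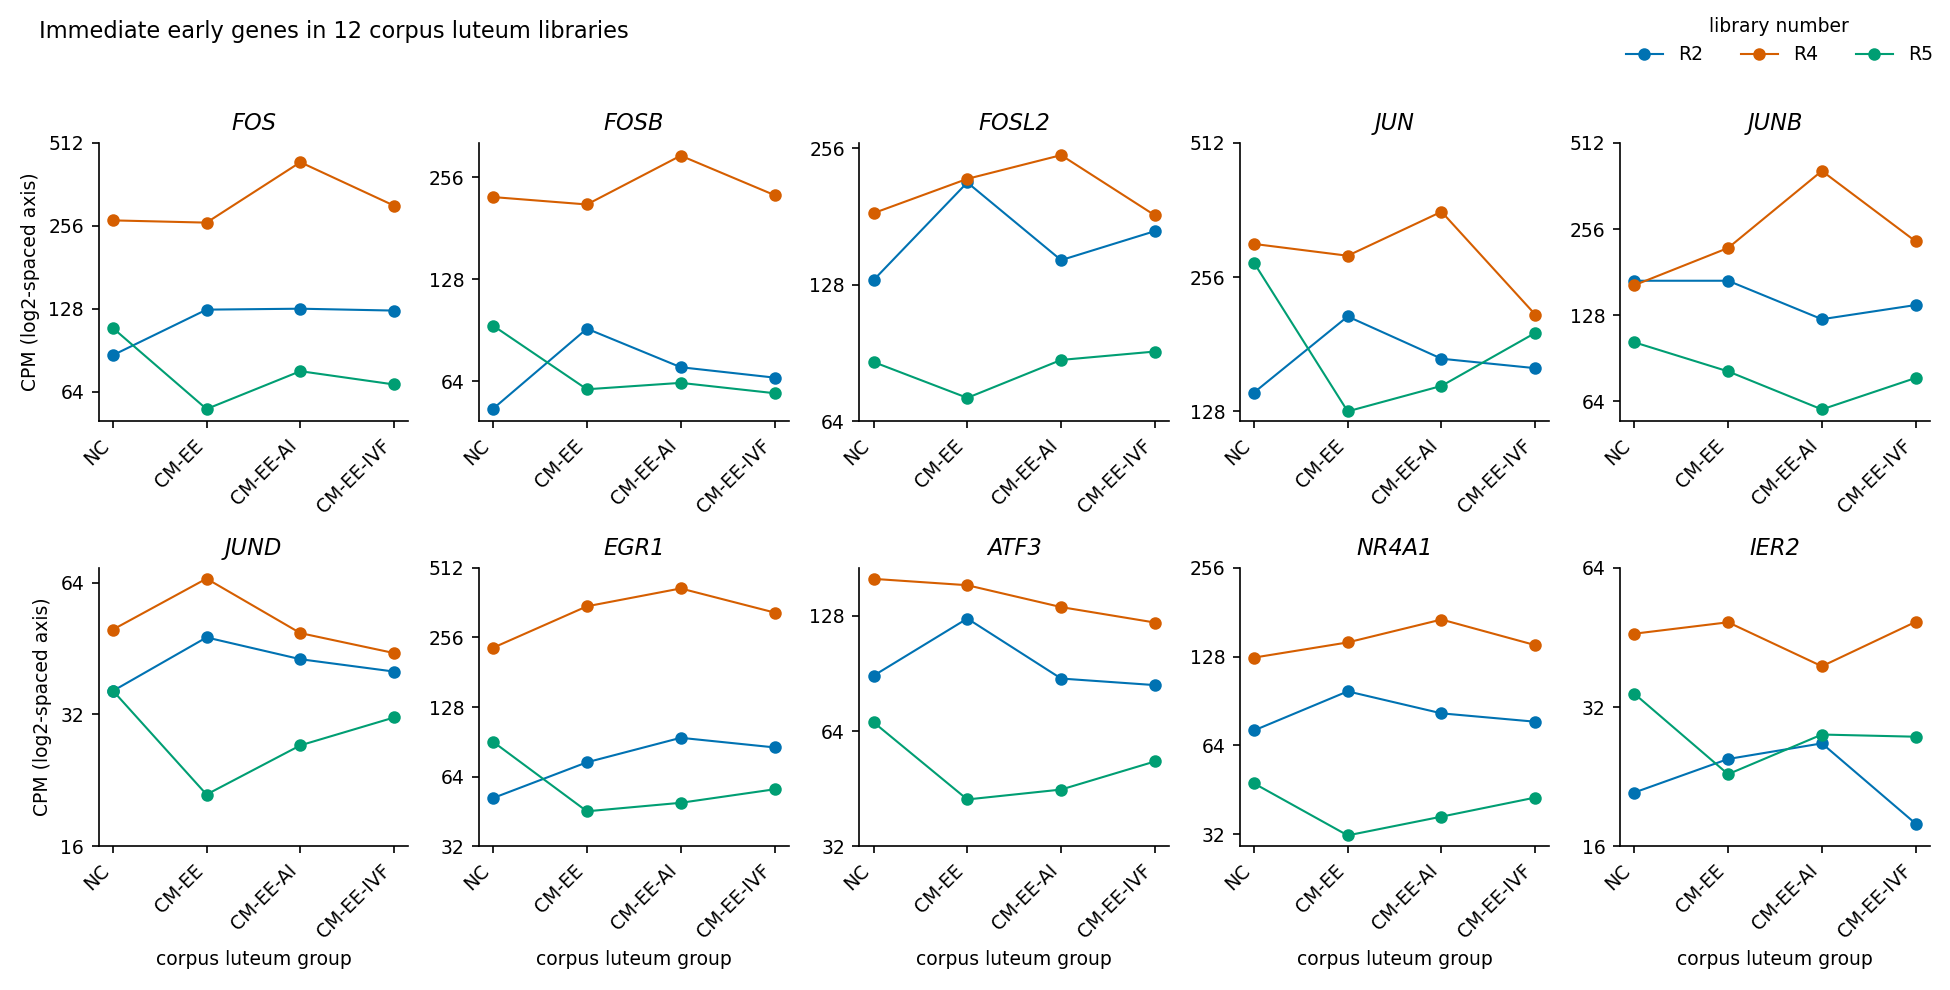
Level of each immediate early gene (CPM, log2-spaced axis, its own scale per panel) in the 12 corpus luteum libraries, by group on the x axis; each point is 1 library, and lines join the 4 libraries of one number (R2, R4, R5). The R4 line is the highest at 39 of 40 gene and group positions, the exception being JUNB in NC.

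JUN, the partner that the JNK kinases activate, followed the library numbers least. Its levels were 141, 209, 168 and 160 CPM in R2, 304, 286, 359 and 211 CPM in R4, and 276, 128, 146 and 192 CPM in R5. The NC library of R5 lay among the R4 values, and the other 3 R5 libraries lay among or near the R2 values. JUN passed no pairwise test between numbers: R4 against R2 gave 0.75 (0.22 to 1.29, adjusted p = 0.0634), and R5 against R4 gave -0.65 (-1.19 to -0.11, adjusted p = 0.104). The test over all 3 numbers gave an adjusted p of 0.0597.

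JUNB, which often opposes JUN at shared sites, had 169, 169, 124 and 139 CPM in R2, 163, 220, 409 and 232 CPM in R4, and 103, 81.5, 60 and 77.3 CPM in R5. The single highest value, 409 CPM, and the single lowest, 60 CPM, were both CM-EE-AI libraries, so that group alone held the whole 6.82-fold range of the gene. JUNB fell by 1.65 from R4 to R5 (interval -2.27 to -1.04, adjusted p = 0.0028) and fell by 0.90 from R2 to R5 (adjusted p = 0.0336), and R4 against R2 gave 0.76 (adjusted p = 0.0905). The call between R2 and R5 was lost when any one of 5 libraries was left out (NC, CM-EE or CM-EE-IVF of R2, CM-EE-AI or CM-EE-IVF of R5), with adjusted p up to 0.127.

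JUND, the Jun protein kept at a steady level in most resting cells, spanned a 3.11-fold range: 36.2, 48, 42.8 and 40.1 CPM in R2, 50, 65.4, 49.1 and 44.2 CPM in R4, and 36.3, 21, 27.2 and 31.5 CPM in R5. R4 and R5 did not overlap, and R2 overlapped both. It fell by 0.84 from R4 to R5 (interval -1.27 to -0.40, adjusted p = 0.0159). Leaving out the R4 library of CM-EE or the R5 library of CM-EE-AI ended this call, at adjusted p of 0.0706 and 0.0703.

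ATF3, a stress-induced bZIP factor that pairs with Jun proteins and tends to repress, had 89.3, 126, 87.8 and 84.4 CPM in R2, 160, 154, 135 and 123 CPM in R4, and 67.5, 42.4, 45 and 53.3 CPM in R5. R5 lay below all other libraries, and the CM-EE library of R2 reached into the R4 range. ATF3 fell by 0.90 from R2 to R5 (adjusted p = 0.00427) and fell by 1.45 from R4 to R5 (interval -1.85 to -1.05, adjusted p = 0.000546). R4 against R2 gave 0.56 (0.17 to 0.95, adjusted p = 0.0603). All 3 conditioned-medium libraries had less ATF3 than the control library of their number in R4 and in R5.

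EGR1, the zinc finger factor that shares SRF control with FOS, had the largest fold changes of the 10 between R4 and each other number. Its levels were 51.7, 73.8, 94.2 and 85.6 CPM in R2, 231, 349, 417 and 328 CPM in R4, and 90.5, 45.3, 49.3 and 56.4 CPM in R5. The lowest R4 library was above the highest library of either other number, and R2 and R5 overlapped. Means were 76.3 ± 18.4 CPM in R2, 331 ± 77 in R4 and 60.4 ± 20.6 in R5 (SD, n = 4 each). The rise from R2 to R4 was 2.12 (1.52 to 2.72, adjusted p = 0.000376), the fall from R4 to R5 was -2.44 (-3.05 to -1.82, adjusted p = 0.000346), and R5 against R2 was -0.31 (-0.90 to 0.27, adjusted p = 0.487).

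NR4A1 (Nur77), an orphan nuclear receptor that acts on steroidogenic genes, was the one member whose 3 numbers were all apart. It had 71.9, 97.6, 82.2 and 77 CPM in R2, 127, 143, 171 and 140 CPM in R4, and 47.6, 31.7, 36.7 and 42.6 CPM in R5, with no overlap between any pair of numbers. NR4A1 fell by 1.87 from R4 to R5 (interval -2.27 to -1.47, adjusted p = 0.000139) and fell by 1.05 from R2 to R5 (adjusted p = 0.00157). It was higher in R4 than in R2 by 0.82 (adjusted p = 0.00994), a call that ended without the R2 library of NC (0.64, adjusted p = 0.0554) or of CM-EE-AI (0.69, adjusted p = 0.0558).

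IER2, a small nuclear protein induced by growth factors, had 20.9, 24.7, 26.7 and 17.9 CPM in R2, 46.1, 48.8, 39.2 and 48.9 CPM in R4, and 34.2, 22.9, 27.9 and 27.6 CPM in R5. Unlike FOSL2, ATF3 and NR4A1, it was not lowest in R5: its R5 level exceeded its R2 level in 3 of 4 groups, at 0.32 (-0.08 to 0.71, adjusted p = 0.261). IER2 was higher in R4 than in R2 by 1.03 (0.63 to 1.42, adjusted p = 0.00301) and fell by 0.71 from R4 to R5 (adjusted p = 0.0222). The fall was not called without any one of 5 libraries (CM-EE or CM-EE-IVF of R4, and each conditioned-medium library of R5), with adjusted p up to 0.0847.

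Counted over the 10 genes, 5 were higher in R4 than in R2 (FOSB, EGR1, FOS, IER2 and NR4A1) and 0 were lower, where 8.72% of all genes tested were higher and 4.93% lower. R5 against R2 gave 4 lower members (NR4A1, FOSL2, ATF3 and JUNB) and 0 higher, where 9.26% of all genes were lower and 11.5% higher. Between R4 and R5, 9 members were lower in R5 and JUN was not called, where 8.67% of all genes were lower and 5.58% higher. The test over all 3 numbers called 9 members, against 26.7% of all genes. Median fold changes of the members were 0.79, -0.57 and -1.55 in these 3 comparisons, and the medians of all genes were 0.04, 0.08 and 0.08. The comparisons share libraries, so they are not separate lines of evidence. The members were chosen with earlier results of these data known, so their counts beside the shares of all genes are a description. Libraries did not overlap for 6 members in the upward direction between R2 and R4 (10.9% of all genes), for 4 in the downward direction between R2 and R5 (13.5%) and for 9 in the downward direction between R4 and R5 (11.5%). With R2 left out, a setting chosen after seeing the data, the same 9 members were called lower in R5 than in R4, where 9.58% of all genes were lower.

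**Figure D2:**
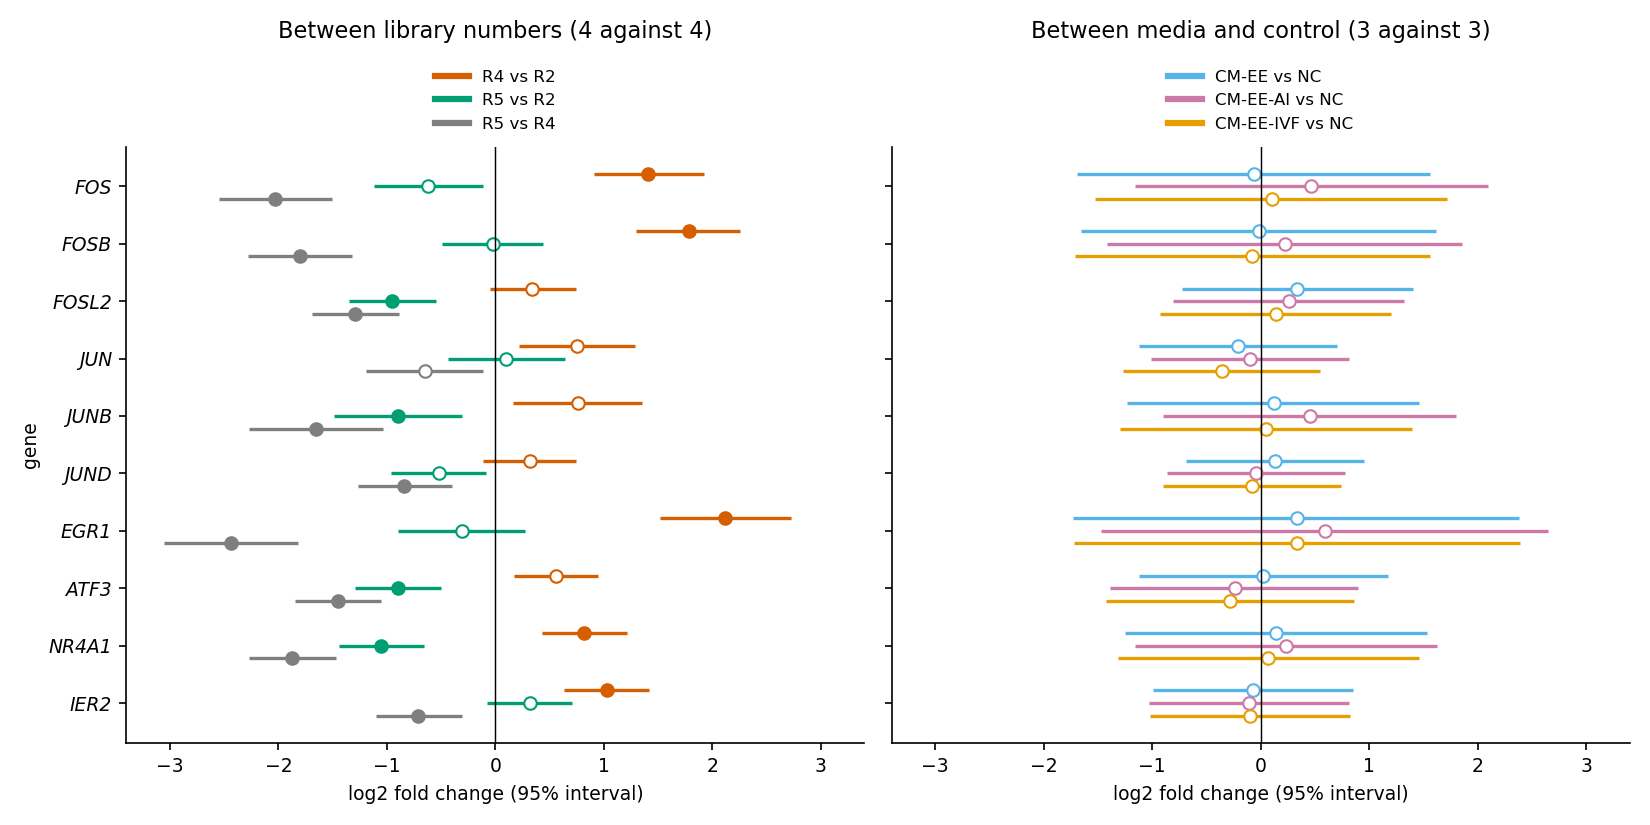
Log2 fold change of each gene with its 95% interval, between library numbers on the left (4 libraries against 4, group in the model). The right side sets each conditioned-medium group against NC (3 against 3, number not in the model). Filled points have an adjusted p under 0.05. Filled points occur on the left side alone, and the intervals on the right reach from -1.73 to 2.65.

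The 4 labelled groups, read as a control and 3 conditioned media, were compared over their 3 libraries each. None of the 10 genes passed the test: edgeR called 0 members in each of the 6 pairwise comparisons and in the test over all 4 groups, 0 members had an unadjusted p under 0.05, and DESeq2 called 0 members as well. With edgeR, 0% of all genes were called in every one of these comparisons, and DESeq2 called 1 gene, not a member, in the test over all 4 groups. Between 127 and 285 of the 18939 genes had an unadjusted p under 0.05 in edgeR. That is a smaller fraction than the 0.05 that chance alone would give. The absence of calls therefore does not show that no gene responded. No member separated any pair of groups, where 2.69% of all genes did so for CM-EE against NC, 3.93% for CM-EE-AI and 5.73% for CM-EE-IVF. Among the media themselves, non-overlap was seen in 3.34% of genes for CM-EE-AI against CM-EE, 5.6% for CM-EE-IVF against CM-EE and 2.32% for CM-EE-IVF against CM-EE-AI.

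The intervals were wide. These fits left out the library number, so differences between numbers counted as spread. With the number as a replicate block, the members' intervals had a median width of 1.03 or 1.04 instead of 2.49. That fit also called 0 members, as given in the last section. EGR1 averaged 124 ± 94.2 CPM in NC, 156 ± 168 in CM-EE, 187 ± 201 in CM-EE-AI and 157 ± 149 in CM-EE-IVF (SD, n = 3 each). In the conditioned-medium groups the SD was as large as the mean or nearly so. Against NC, the 3 members with the lowest p in CM-EE were FOSL2 at 0.33 (-0.73 to 1.40), JUN at -0.21 (-1.12 to 0.70) and JUND at 0.13 (-0.69 to 0.95). In CM-EE-AI they were JUNB at 0.45 (-0.90 to 1.80), EGR1 at 0.59 (-1.47 to 2.65) and FOS at 0.46 (-1.16 to 2.09). In CM-EE-IVF they were JUN at -0.36 (-1.27 to 0.55), ATF3 at -0.28 (-1.43 to 0.86) and EGR1 at 0.33 (-1.72 to 2.39). These comparisons share the NC libraries, and every interval reaches at least 0.7 from 0 on one side or both. A p that misses the threshold at this width does not show that the groups were alike.

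Most of these values changed sign when 1 library was left out. That also leaves 1 group without a library of that number, while the other group keeps it. R4 was highest at 39 of 40 gene and group positions, so a change of sign cannot be read as an effect of 1 library alone. All 3 positive values of CM-EE-AI turned negative without its R4 library: JUNB became -0.65, EGR1 -0.79 and FOS -0.60. That library held the highest FOS, FOSB, FOSL2, JUN, JUNB, EGR1 and NR4A1 of the series. With all 4 R4 libraries left out, a setting chosen after seeing the data, JUNB was -0.55, EGR1 0.02 and FOS 0.07. JUN in CM-EE became 0.04 without that group's R5 library, and JUND became -0.24 without its R4 library. In CM-EE-IVF, ATF3 became 0.15 without the R4 control, and EGR1 became -0.04 without the R2 control and -0.81 without the R4 library of its own group.

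Between the media, FOS was 0.52 (-1.10 to 2.15) higher in CM-EE-AI than in CM-EE, JUNB 0.33 higher and ATF3 stood at -0.27, none past the test (adjusted p = 1 for each). The signs of FOS and JUNB turned to -0.54 and -0.77 without the R4 library of CM-EE-AI, and that of ATF3 to 0.08 without the R4 library of CM-EE or 0.05 without the R5 library of CM-EE-AI. CM-EE-IVF gave -0.31 for ATF3, -0.21 for JUND and -0.20 for FOSL2 against CM-EE, and each turned positive without the R4 library of CM-EE (0.04, 0.16 and 0.03). FOSL2 also became 0.05 without the R2 library of CM-EE or the R5 library of CM-EE-IVF. Against CM-EE-AI, CM-EE-IVF gave -0.40 for JUNB, -0.26 for JUN and -0.37 for FOS, which became 0.70, 0.26 and 0.70 without the R4 library of CM-EE-AI. FOS also became 0.01 without the R5 library of CM-EE-IVF. These fits, too, set groups with unlike numbers against each other.

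The split of variation put these comparisons in proportion. Of the sum of squares of log2 CPM over the 12 libraries, the library number took a median of 88.1% in the 10 genes, the group 1.13% and the remainder 9.02%. The medians over all genes were 40.1%, 13.6% and 38.6%. NR4A1 had the largest share by number, 94.7%, and FOSB, EGR1, FOS, ATF3 and FOSL2 followed at 92.1%, 91%, 89.2%, 88.3% and 88%. JUN had the smallest, 54%, and the largest share by group, 5.24%. All 10 genes had more than 50% by number, as 39.1% of all genes did.

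**Figure D3:**
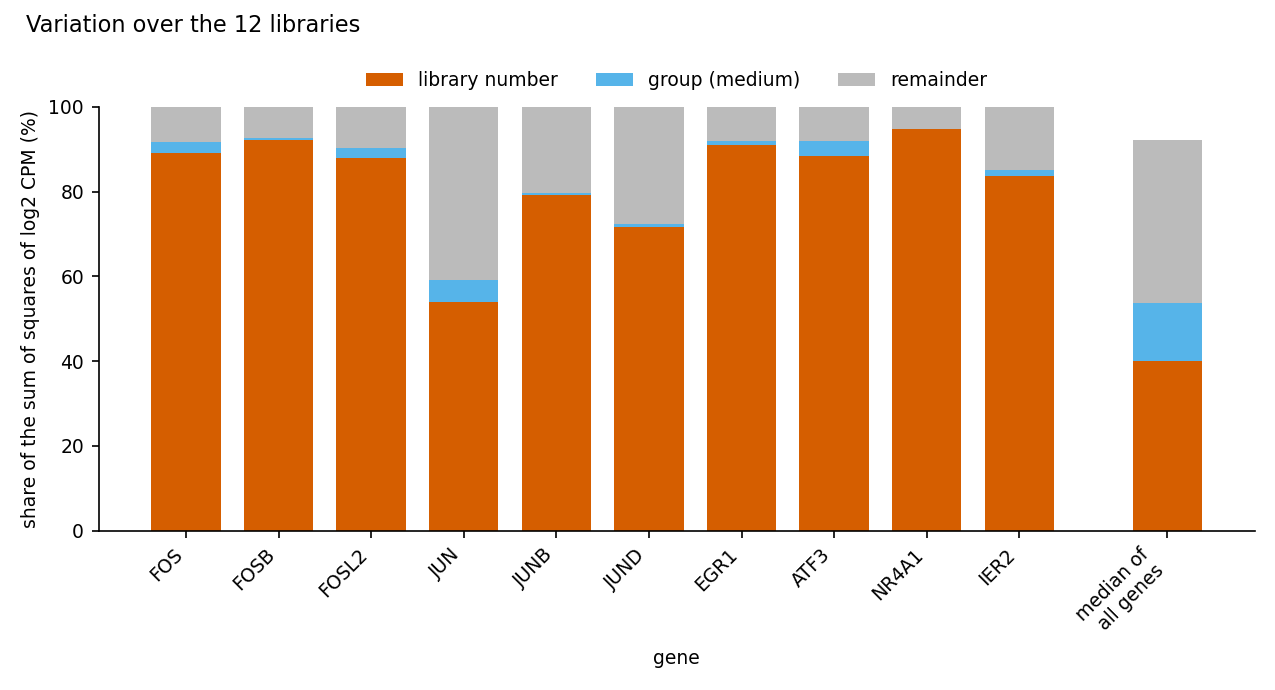
Share of each gene's sum of squares of log2 CPM over the 12 libraries (%) taken by library number, group and remainder; the last bar stacks the medians of the 3 shares over all 18939 genes, which are separate medians and need not add to 100. The number takes 54 to 94.7% in the 10 genes and a median of 40.1% in all genes.

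The members also resembled one another over the 12 libraries, and their likeness within a number was not tested. Pearson's r of log2 CPM over the 12 libraries, which share their numbers and sources, lay between 0.405 and 0.972 for the 45 pairs, with a median of 0.823. FOS and EGR1 were the closest pair (0.972), followed by FOSB with EGR1 (0.967), and ATF3 was closest to NR4A1 (0.964). FOSL2 and IER2 were the least alike (0.405), FOSL2 having its lowest mean in R5 and IER2 in R2. JUN was nearest to FOSB (0.849).

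Outside the 10, the genes most like the members' mean pattern over the 12 libraries included BCL6 (r = 0.984), MARCKSL1 (0.983), HSF2 (0.982), IFRD1 (0.982), CHKA (0.979), NFIL3 (0.979) and TRIB1 (0.977). BCL6, a zinc finger repressor, had 40.7 to 61.4 CPM in R2, 96 to 139 CPM in R4 and 26.7 to 56.5 CPM in R5. HSF2, a heat shock transcription factor, had 34.5 to 41 CPM in R2, 46.7 to 58 CPM in R4 and 21.4 to 31.8 CPM in R5. They were picked for this likeness out of all genes, so their levels are a description; NFIL3 and TRIB1 also belong to the lists below.

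Within one number, each conditioned-medium library could be set beside the single NC library of that number, and the direction was not the same in each number. In R2, all 3 conditioned-medium libraries were above the control for 7 members (FOS, FOSB, FOSL2, JUN, JUND, EGR1 and NR4A1) and for 26% of all genes. In R5, all 3 were below the control for 9 members, every one but FOSL2, and for 29% of all genes. R4 was mixed: EGR1, JUNB and NR4A1 had all 3 above the control (29.6% of all genes) and ATF3 had all 3 below (29%). The 6 members FOS, FOSB, JUN, JUND, EGR1 and NR4A1 were above in R2 and below in R5, as were 9.73% of all genes.

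EGR1 was 0.51 to 0.86 above the control of its number in R2, 0.51 to 0.85 above it in R4 and below it in R5 (-1 to -0.68), on the log2 CPM scale. FOS differences were 0.54 to 0.56 in R2, -0.03 to 0.70 in R4 and -0.98 to -0.52 in R5. JUN ran from 0.18 to 0.57 in R2, from -0.53 to 0.24 in R4 and from -1.10 to -0.52 in R5. JUNB went another way: it was at or below the control in R2 (-0.44 to 0), above it in R4 (0.43 to 1.33) and below it in R5 (-0.77 to -0.33). Each of these differences rests on 1 library against 1, the 3 within a number share their control, and none was tested.

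**Figure D4:**
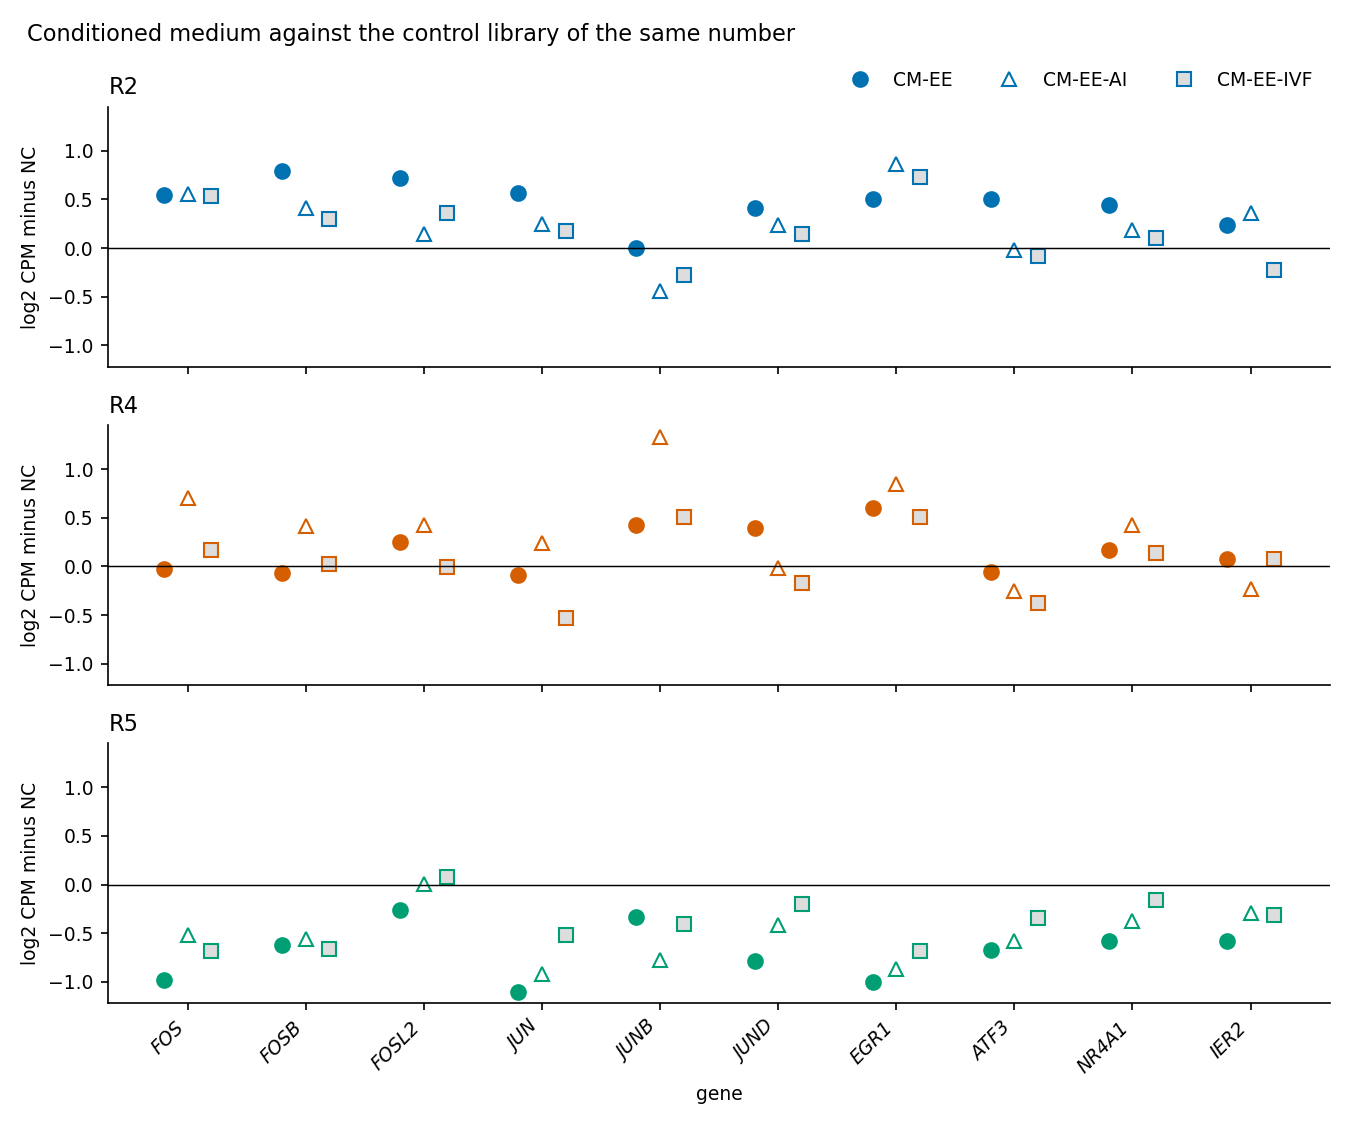
Difference in log2 CPM between each conditioned-medium library and the NC library of the same number, by gene, with R2, R4 and R5 in separate panels; the 3 marks per gene are CM-EE (filled circle), CM-EE-AI (open triangle) and CM-EE-IVF (grey square), 1 library each. Marks lie mostly above 0 in R2 and, apart from FOSL2, below 0 in R5.

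Other genes of the primary response were counted in the same comparisons. This list and those below were also chosen with earlier results known, so their counts are a description. For this list and those below, 8.72% of all genes were higher and 4.93% lower in R4 than in R2. In R5 against R2, 11.5% of all genes were higher and 9.26% lower, and in R5 against R4, 5.58% were higher and 8.67% lower. Of 48 tested, 27 were higher and 2 lower in R4 than in R2, 1 was higher and 20 lower in R5 than in R2, and 0 were higher and 39 lower in R5 than in R4, with medians of 0.81, -0.53 and -1.47. EGR3 was higher in R4 than in R2 by 2.97 (4.61 ± 1.41 against 36.8 ± 14.6 CPM, SD, n = 4 each, adjusted p = 0.00019). EGR2, another member of that zinc finger family, was higher by 3.31 (adjusted p = 0.000239), and CYR61, a matricellular protein and SRF target, by 1.56 (adjusted p = 0.000223). From R4 to R5, NR4A3 fell by 2.04 (adjusted p = 6.72e-05), the stress kinase PLK3 fell by 2.20 (adjusted p = 0.00024) and the MAP kinase phosphatase DUSP4 fell by 2.00 (adjusted p = 0.000324).

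Some genes of that list went elsewhere. DUSP6, an ERK phosphatase and a readout of ERK activity, was highest in R2, at 80.7 ± 19.6 CPM, against 20.6 ± 6.79 in R4 and 15.7 ± 4.35 in R5 (SD, n = 4 each), and fell by 2.01 from R2 to R4 (adjusted p = 0.000332). BTG1, an antiproliferative gene, fell by 0.80 from R2 to R4 (adjusted p = 0.0326) and fell by 1.99 from R2 to R5 (adjusted p = 0.00011). In R5 against R2, where the list had 20 lower genes and 1 higher, DUSP6 went with the list at -2.37 (adjusted p = 7.54e-05). So did ERRFI1, a feedback inhibitor of the EGF receptor, at -1.78 (adjusted p = 0.000108). GADD45B alone of the list was higher in R5 than in R2, by 0.86 (adjusted p = 0.0452).

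Upstream factors and kinases formed the next list. It holds 24 genes for SRF, its cofactors, CREB and the kinases that act on them. Of these, 2 were higher and 5 lower in R4 than in R2 (all genes 8.72% and 4.93%). In R5 against R2, 0 were higher and 6 lower (11.5% and 9.26%), and in R5 against R4, 0 were higher and 5 lower (5.58% and 8.67%). The 2 higher in R4 are near the share of all genes. SRF itself was higher in R4 than in R2 by 1.58 (5.17 ± 1.57 against 15.8 ± 6.33 CPM, SD, n = 4 each, adjusted p = 0.00426), and ELK1, its ternary complex partner, by 0.94 (adjusted p = 0.00913). MAP2K1 (MEK) fell by 0.91 and the SRF coactivator MKL2 fell by 0.72 from R2 to R4 (adjusted p = 0.0067 and 0.0107). From R2 to R5 the cAMP response gene CREM fell by 1.53 (adjusted p = 0.000269), and from R4 to R5 the SRF coactivator MKL1 fell by 1.15 (adjusted p = 0.00125).

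Among 22 other AP-1 and bZIP partners, 3 were higher and 0 lower in R4 than in R2 (all genes 8.72% and 4.93%). In R5 against R2, 2 were higher and 4 lower (11.5% and 9.26%), and in R5 against R4, 0 were higher and 7 lower (5.58% and 8.67%). The counts of higher genes are near the shares of all genes. NFE2L1, a regulator of proteasome genes, was higher in R4 and in R5 than in R2, by 1.21 and 0.77 (adjusted p = 0.000888 and 0.00855). The small Maf proteins MAFG and MAFF were lower in R5 than in R4, at -1.57 and -1.44 (adjusted p = 0.000945 and 0.00182). NAB2, a corepressor that binds EGR1, was higher in R5 than in R2 by 0.65 (adjusted p = 0.0391), and its relative NAB1 fell by 1.06 (adjusted p = 0.00104).

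Heat shock genes, a separate stress response, rose in R4 with the members but were not low in R5. Of 16 tested, 15 were higher in R4 than in R2 and 11 were higher in R5 than in R2, with medians of 1.26 and 0.89, where the members had 0.79 and -0.57. The summed level of the list was 5920 to 6520 CPM in R2, 14300 to 22300 in R4 and 9470 to 16000 in R5. CRYAB, a small heat shock protein, was at 3.21 ± 0.64 CPM in R2, 77.8 ± 9.97 in R4 and 59.6 ± 24.6 in R5 (SD, n = 4 each). Its rise was 4.59 from R2 to R4 and 4.14 from R2 to R5 (adjusted p = 6.44e-06 and 4.4e-06). HSPA1A also rose, by 2.50 and 1.88 (adjusted p = 0.000139 and 0.000451), though reads of this gene can be split with a near-identical copy. From R4 to R5, 15 of the 16 had fold changes below 0, with a median of -0.47, and 4 were called lower. HSPA5, the chaperone of the endoplasmic reticulum, led these 4 with a fall of 1.40 (adjusted p = 0.00298). None of the genes on these 4 lists was called in any comparison of groups. Against NC, 14 of 16 heat shock genes were below 0 in each conditioned medium. Their medians were -0.34 in CM-EE, -0.33 in CM-EE-AI and -0.25 in CM-EE-IVF. In the same order, 43, 36 and 29 of 48 other primary response genes were above 0. So were 13, 9 and 9 of 24 upstream genes and 12, 11 and 8 of 22 AP-1 and bZIP partners. These comparisons share the NC libraries, and the directions were not tested.

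**Figure D5:**
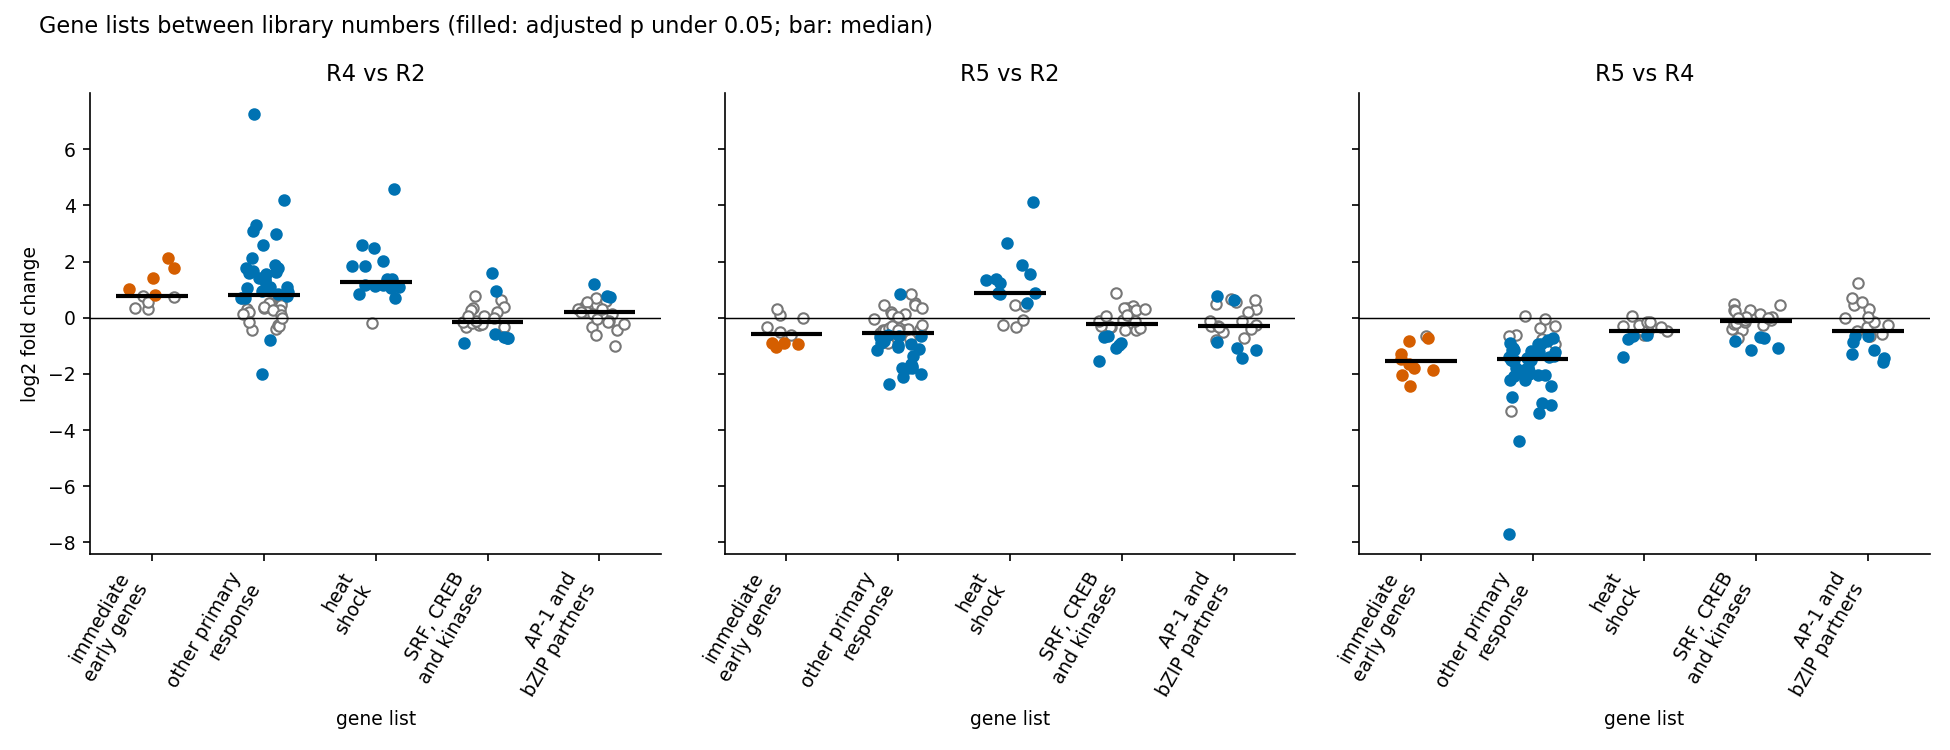
Log2 fold change of each gene of 5 lists between library numbers (points; filled where the adjusted p is under 0.05, orange for the 10 members, blue for the other lists), with a bar at each list's median. The outermost point in the first and last panels is EGR4, which had 0 to 0.401 CPM in R2 and 0 to 0.366 CPM in R5, so its fitted fold change there depends on the prior count; in the middle panel, the median of the heat shock list lies above 0 and that of the members below.

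Several lists of cell type markers moved with the library numbers. The test over all numbers called 10 of 11 steroidogenic, 6 of 8 endothelial, 5 of 6 smooth muscle and 5 of 6 fibroblast markers, and 26.7% of all genes. It called 1 of 6 macrophage, 0 of 6 T cell and 1 of 3 granulosa markers. These last 3 lists hold few genes, most at low levels, so the counts do not show that they stayed level. All 6 genes of the T cell list, which includes the broader leukocyte gene PTPRC, had fold changes above 0 in R5 against R2 and against R4, with medians of 0.68 and 0.77. Of the steroidogenic markers, 6 were higher and 1 lower in R4 than in R2, 3 were higher and 1 lower in R5 than in R2, and 1 was higher and 7 lower in R5 than in R4; their summed level was 1530 to 2730 CPM in R2, 1810 to 6760 in R4 and 1520 to 2240 in R5. The prostaglandin receptor PTGFR was higher in R4 than in R2 by 1.44 and fell by 1.67 from R4 to R5 (adjusted p = 0.00809 and 0.00429). Endothelial markers went the other way in R4: 5 of 8 were lower and 2 higher than in R2, and 4 were lower and 1 higher in R5 than in R2, with sums of 1260 to 1580 CPM in R2, 751 to 1100 in R4 and 796 to 1120 in R5. CLDN5, a junction protein of endothelium, fell by 3.35 from R2 to R4 and fell by 3.15 from R2 to R5 (adjusted p = 1.67e-05 and 1.35e-05). Other endothelial markers differed from it. TEK had means of 30.5 CPM in R2, 44.3 in R4 and 61.4 in R5. In the same order EMCN had 129, 233 and 182 CPM, and KDR had 489, 399 and 380 CPM.

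Smooth muscle and pericyte markers summed to 279 to 390 CPM in R2, 302 to 567 in R4 and 170 to 241 in R5, with 4 of 6 higher in R4 than in R2 and 3 of 6 lower in R5 than in R4. Fibroblast markers summed to 618 to 998, 243 to 973 and 323 to 399 CPM in the same order, with 3 of 6 lower in R4 than in R2 and 4 of 6 lower in R5 than in R2. Macrophage markers (14.4 to 40 CPM over all libraries) had 1 of 6 higher in R4 than in R2, and 1 higher and 1 lower in R5 than in R2. The T cell list (15.2 to 50 CPM) had 0 of 6 called in any of these comparisons. Most of its sum came from PTPRC, which is not restricted to T cells, with means of 23.4, 25.6 and 33.9 CPM in R2, R4 and R5. No other gene of that list had a mean above 2.22 CPM in any number. Of 3 granulosa markers (11.1 to 39.3 CPM), 1 was higher in R5 than in R2. The 3 erythroid genes summed to 33.3 to 61 CPM in R2, 2.58 to 5.32 in R4 and 1.85 to 4.13 in R5, with HBA and HBA1 lower than in R2 in both. These 2 have nearly the same counts (means of 21.1 and 21.2 CPM in R2), so reads of near-identical copies may have been counted for each, and HBB had 0.36 CPM in R2, 1.33 in R4 and 1.01 in R5. No marker tested was at 0 in any library. In bulk RNA, fewer cells of a type and less RNA per cell cannot be told apart, and the part of these markers, of the mitochondrial share and of the heat shock genes in the differences of the 10 members was not tested.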

How the data were processed

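RNA was sequenced from 12 bovine corpus luteum libraries, 3 per group. The authors deposited raw counts per gene as whole numbers; 9 columns were entered under the unit expected counts, although their deposited values are whole too and rounding changed nothing. STAR, featureCounts, cutadapt, Trim Galore and DESeq2 are named, without versions, per the submitters' processing notes. The sources used here do not give the genome build, the strand setting or, for this tissue, the library kit. The table has 1 column for each group and library number, although R4 and R5 samples have 2 titles each. No pair of the 12 columns was identical. The table of 9 endometrial libraries was not used.

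Counts were filtered with filterByExpr by group and TMM-scaled in edgeR 4.0.16 (R 4.3.3). Groups were compared with a quasi-likelihood F test on group means, and library numbers with group and number as terms; both fits used all 12 libraries. Intervals are 95%. Between 416 and 8124 counts stood behind each member's value. CPM uses the TMM-scaled library size, and log2 CPM has a prior count of 2. Of the table's gene names, 17399 (91%) are in the RefSeq gene table. Alternatives were DESeq2 1.42.0, its size factors, no filter, a replicate block, no group term and leaving out each library. Scripts were tested on simulated data.

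The members and lists were chosen with earlier results of these data known. By rule, all members are given in every library, with fold changes for those past the threshold, or for the 3 with the lowest p where fewer than 3 passed; lists name up to 3 genes per direction. PTGFR, CLDN5, HSPA5, CRYAB, HSPA1A and the other named list genes follow that rule; BCL6 and HSF2 were singled out of the 8 nearest genes, of which 1 is not reported here, and EGR4 for its 0 values, after their values were seen. Fold changes of members that missed the threshold between numbers are added as values. These list names were not among the genes tested: CCN1, CCN2, NPAS4, NFKBIA, MRTFA, MRTFB, HSPA1B, HSD3B2, AIF1, AMH, PF4 and PPBP; CYR61, CTGF, MKL1 and MKL2 are older symbols of 4 of them.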

Additional observations from a re-analysis of the deposited data

Results flagged for a closer look

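Of 30 sets of 4 libraries (each member within each number), 4 held a library far from the other 3 by Dixon's criterion at the 95% level, and chance gives about 1 in 20. FOS was 86.7 CPM in the NC library of R2, with the other R2 libraries at 126 to 128 CPM. FOSB was 297 CPM in the CM-EE-AI library of R4 and 93.3 CPM in the NC library of R5, each the highest of its number. ATF3 was 126 CPM in the CM-EE library of R2, the highest of its number.

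In 6 members, all 3 conditioned-medium libraries lay above the NC library of their number in R2 and below it in R5; the difference between the numbers was not tested. On the log2 CPM scale, the median difference in R2 and in R5 was 0.55 and -0.68 for FOS, and 0.41 and -0.62 for FOSB. It was 0.25 and -0.92 for JUN, 0.24 and -0.42 for JUND, 0.73 and -0.87 for EGR1, and 0.19 and -0.37 for NR4A1. Each rests on a single control library per number, and the controls of FOS in R2 and FOSB in R5 are among the outlying libraries above.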

How the results depend on the processing

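Of 319 recalculated fold changes between library numbers, 305 kept their direction and call, 14 lost the call and 0 changed sign. Of 342 between groups, 28 changed sign and none was called. Of 203 counts of members called, 2 moved by more than 1.5 times: 8 members were called between R4 and R2 with no group term, and 7 between R5 and R2 without the R5 library of NC. Leaving out 1 library at a time gave 4 to 6 members for R4 against R2, 3 to 7 for R5 against R2, 7 to 10 for R5 against R4 and 8 to 10 over all numbers, and 0 in every group comparison. DESeq2 called 6, 6, 10 and 10. Settings chosen after seeing the data were mitochondrial transcripts and RN18S1 left out (5, 4, 9 and 9 members), the R4 libraries left out and the R2 libraries left out. Without the R4 libraries, JUND became -0.09 and JUNB -0.55 (CM-EE and CM-EE-AI against NC), EGR1 0 (CM-EE-IVF against NC), JUNB -0.42 and JUND 0.06 (CM-EE-AI and CM-EE-IVF against CM-EE), and JUNB 0.21 and JUN 0.16 (CM-EE-IVF against CM-EE-AI); the cause was not tested. Leaving out 1 library at a time, values against NC ran from -0.51 to 0.04 for JUN and -0.24 to 0.46 for JUND (CM-EE), from -0.65 to 0.88 for JUNB, -0.79 to 1.40 for EGR1 and -0.60 to 1.12 for FOS (CM-EE-AI), and from -0.62 to 0.15 for ATF3 and -0.81 to 1.14 for EGR1 (CM-EE-IVF). Against CM-EE they ran from -0.54 to 1.23 for FOS, -0.77 to 0.77 for JUNB and -0.70 to 0.08 for ATF3 (CM-EE-AI), and from -0.70 to 0.04 for ATF3, -0.56 to 0.16 for JUND and -0.56 to 0.05 for FOSL2 (CM-EE-IVF). CM-EE-IVF against CM-EE-AI ran from -0.87 to 0.70 for JUNB, -0.49 to 0.26 for JUN and -1.14 to 0.70 for FOS. With the library number as a replicate block, 0 members and 0 genes were called in each group comparison, while the members' intervals narrowed to a median width of 1.03 or 1.04 on the log2 scale (2.49 without it) and lay within -0.94 to 0.97; for CM-EE-AI against NC, EGR1 was 0.21 (-0.46 to 0.89), FOS 0.20 and JUNB 0.07. Deviations from the group means correlated at 0.0813 to 0.662 between libraries of the same number and -0.49 to 0.198 between others. All 12 of 12 libraries correlated best with a library of their own number, so libraries of a number went together. The main group fits did not take the numbers as pairs, the lowest correlation being under 0.1. Their intervals are therefore wider than those of the blocked fit.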
